A study of Zea mays with 2 samples.

Results

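The regions described here are stretches of the maize genome where exactly 1 embryo methylation peak met exactly 1 endosperm methylation peak. They were chosen by peak position alone: on chromosomes 1 to 10, an embryo and an endosperm peak shared at least 1 bp, and neither overlapped any other peak of the other tissue. This gave 77642 pairs, which held 22.1% of the 351748 embryo peaks and 67.8% of the 114577 endosperm peaks on these chromosomes. The peaks came from MeDIP-seq, the sequencing of DNA fragments enriched by an anti-5-methylcytidine antibody. There was 1 embryo and 1 endosperm library, both of the maize inbred B73 at 14 days after self-pollination. How many ears were pooled is not given in the sources used here. No second library of either tissue was analysed, so a difference between the tissues and a difference between the libraries cannot be told apart, and no test between tissues was made. Intervals in parentheses after a share are 95% Wilson intervals, which reflect only counting error. The deposited lists carry no read numbers, read depth per peak was not used here, and the lists hold no gene expression with which to check the tissue labels.

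In plants, DNA methylation is found at cytosines in CG, CHG and CHH contexts, and it is dense over transposable elements and repeats. Embryo and endosperm both arise at fertilization, but the endosperm carries an additional maternal genome copy, and in Arabidopsis its precursor, the central cell, loses methylation at part of the genome through the DNA glycosylase DEMETER. A peak is a stretch where antibody-bound fragments pile up above the background, so its edges depend on fragment length, on read number and on the extent of the methylated DNA, and do not mark single cytosines. Comparing the edges of 2 peaks at one place describes how alike the enriched stretches were, beyond the presence or absence of a peak.

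In 45550 pairs (58.7%, 58.3 to 59.0), the endosperm peak lay wholly within the embryo peak. In 27805 pairs (35.8%, 35.5 to 36.1) the peaks were staggered, each reaching past the other on 1 side. The embryo peak lay within the endosperm peak in 4279 pairs (5.51%, 5.35 to 5.67). This last share depended on the settings: it was 8.72% when edges up to 10 bp outside were allowed, and 8.62% when both lists were limited to scores of at least 100. Only 8 pairs had both edges identical. Edges shared on 1 side were counted as nested, and 1442 pairs (1.86%) shared at least 1 edge. Nested endosperm peaks therefore outnumbered nested embryo peaks by far on the same chromosomes. The pairs covered 31.6 Mb when both peaks were joined, of which 18.6 Mb lay in both.

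The classes are best seen in single pairs, named here by rules on their ranks and class medians. The pair closest to the medians of the class with the endosperm peak nested lay on chromosome 5, with the embryo peak from 6448708 to 6448973 (266 bp) and the endosperm peak from 6448791 to 6448950 (160 bp). In the most typical pair with the embryo peak nested, also on chromosome 5, the embryo peak ran from 145177072 to 145177351 (280 bp) and the endosperm peak from 145177053 to 145177395 (343 bp). For the staggered class this was a pair on chromosome 10, with the embryo peak at 82773079 to 82773626 (548 bp) and the endosperm peak at 82773063 to 82773540 (478 bp). Positions are those of the deposited lists, counted from 1, and the genome build is not given in the sources used here.

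**Figure D1:**
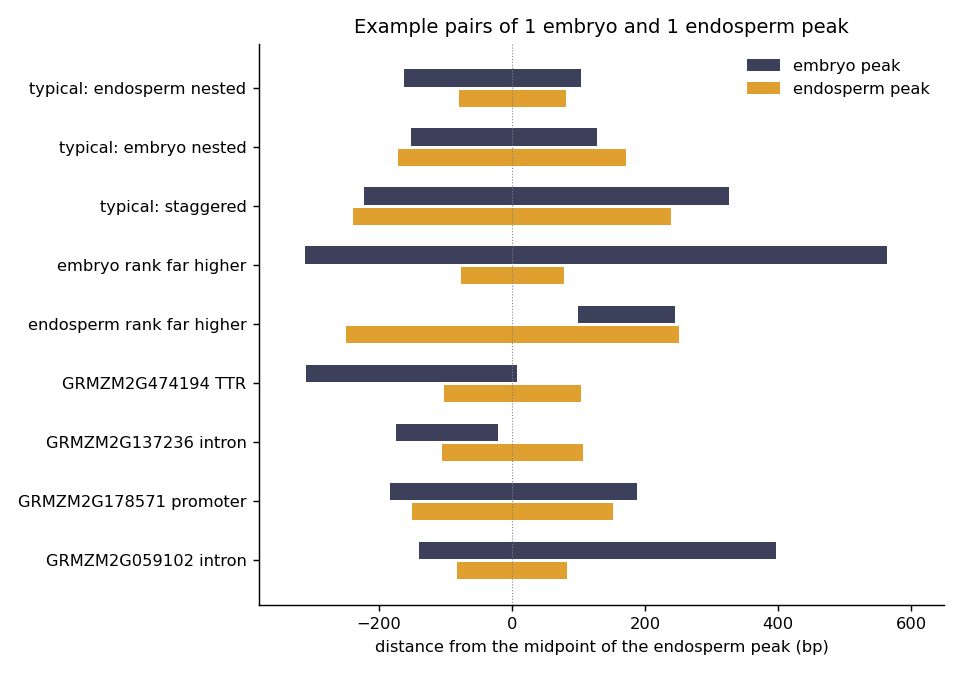
Each row is 1 pair, with its embryo peak drawn above its endosperm peak against the distance in bp from the midpoint of the endosperm peak. The upper 3 rows are the most typical pair of each class, followed by the pairs with the largest rank differences and 4 pairs in genes. The embryo peak of 537 bp in the GRMZM2G059102 intron reaches far to the right of an endosperm peak of 165 bp.

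By the median, peaks of the pairs were longer and had higher scores than peaks of their own library without overlap. The score, called diffScore by the authors, is -10 times the log10 of the MACS p-value of a peak, with a minimum of 50 in both lists. Embryo peaks in the pairs had a median length of 334 bp (quartiles 252 and 468) and a median score of 136.2, against 257 bp and 79.7 for the 268360 embryo peaks that overlapped no endosperm peak. Endosperm peaks in the pairs had medians of 223 bp (178 and 291) and 71.4, against 180 bp and 59.5 for the 29498 endosperm peaks that overlapped no embryo peak. Neither length nor score was part of the rule, although a longer peak has more bases in which an overlap can fall. Of the embryo peaks in pairs, 49.6% were in the top 25% of the scores of their library, against 17.01% of the embryo peaks without overlap. Of the endosperm peaks in pairs 30.1% were in the top 25% of theirs, against 7.88%. Other overlapping peaks were left out because they, or the peak they overlapped, met several peaks of the other tissue. These were 5746 in embryo, with a median length of 500 bp and score of 205.3, and 7437 in endosperm, with 248 bp and 78.2. The nearest other peak of the same library lay a median of 1240 bp from an embryo peak in a pair and 5385 bp from an endosperm peak in a pair.

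Embryo peaks were the longer ones in most pairs. The median length ratio, embryo over endosperm, was 1.41 (quartiles 1.11 and 1.89), a log2 ratio of 0.50. The embryo peak was longer in 65967 pairs (85.0%), the endosperm peak in 11422 (14.7%), and 253 pairs had equal lengths. In nested pairs the sign of the log2 ratio is fixed by the class, so its size alone is informative there. Where the endosperm peak was nested, the embryo peak had a median of 381 bp against 214 bp in endosperm, with a median ratio of 1.66 (1.35 and 2.18). Where the embryo peak was nested, the medians were 230 bp in embryo and 295 bp in endosperm, with a ratio of 0.816 (0.698 and 0.898). The longer peak thus exceeded the inner one by a median of 144 bp when it was the embryo peak and of 53 bp when it was the endosperm peak. In the staggered class, where the class does not set the sign, the medians were 284 bp in embryo and 232 bp in endosperm, the ratio was 1.14 (0.994 and 1.43), and the embryo peak was longer in 73.4% of pairs (72.9 to 73.9). Lengths of both peaks rose and fell together, with a Spearman's rho of 0.50 over all pairs, 0.60 with the endosperm peak nested, 0.89 with the embryo peak nested and 0.63 in staggered pairs. These are correlations across sites of the same pair of libraries, and a class limits which lengths can go together.

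An embryo peak at least 2 times as long as its partner was found in 16755 pairs (21.6%), against 24.8% of all 86600 overlapping embryo and endosperm peak pairs on these chromosomes, from which the members are drawn. The reverse, an endosperm peak at least 2 times as long, was found in 304 pairs (0.392%), against 1.45% of all overlapping peak pairs. Both shares were thus lower in the 1 to 1 pairs than among all overlapping peak pairs, of which they are the greater part. The rule leaves out each peak that met several of the other tissue, and such a peak counts once per overlap among the 86600. Left-out peaks were also longer by the median in both tissues. The lower shares are therefore shaped by the rule and are a description only. The ratio was lower where the endosperm peak was longer. With endosperm peaks of 150 to 199 bp it was 1.58 and the endosperm peak was nested in 65.1% of pairs, whereas with endosperm peaks of 600 to 999 bp it was 1.02 and that share was 36.1%. Among the 432 pairs with an endosperm peak of 1000 bp or more, the embryo peak was nested in 36.6%, the endosperm peak in 28.7%, and the median ratio was 0.949. A choice of long endosperm peaks lowers this ratio by itself. In the 263 pairs in which both peaks reached 1000 bp the median ratio was 1.02, and the classes made up 47.1% (endosperm nested), 36.5% (staggered) and 16.3% (embryo nested).

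**Figure D2:**
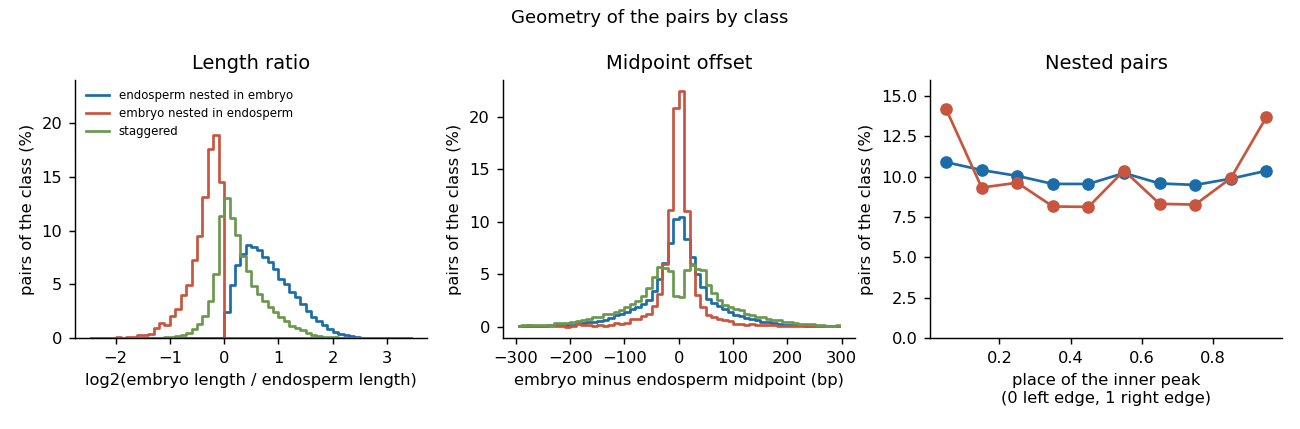
The left panel gives the log2 of embryo over endosperm length, the middle panel the embryo minus the endosperm midpoint in bp, and the right panel the place of the inner peak within the longer one, each as a percentage of the pairs of its class (lines in the colours of the 3 classes). Staggered pairs centre above a log2 ratio of 0 with a median of 0.19, and the 10 equal bins in the right panel hold from 9.49% to 10.9% of the pairs with the endosperm peak nested.

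Midpoints of the 2 peaks lay close together, with a median absolute offset of 36.5 bp (quartiles 15.5 and 76.5), which was 10.7% of the joined length. By class the median was 30 bp with the endosperm peak nested, 12.5 bp with the embryo peak nested and 51 bp in staggered pairs. Offsets of 100 bp or more were found in 24.2% of staggered pairs, in 14.1% of pairs with the endosperm peak nested and in 4.79% of those with the embryo peak nested. The inner peak can move only within the excess length of the outer one, so the offsets of the nested classes are bounded by the lengths above.

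No side of the chromosome was favoured by more than a small margin. The embryo midpoint lay to the right of the endosperm midpoint in 50.5% of all pairs (50.1 to 50.8), and the median signed offset was 1 bp. In staggered pairs the embryo peak started first in 13694 and the endosperm peak in 14111 pairs (49.3% embryo first, 48.7 to 49.8). Nested peaks were not centred in the peak that held them. Of the nested endosperm peaks, 34.5% lay in the left, 32.6% in the middle and 32.9% in the right of 3 equal parts of the space open to them. Their shorter overhang had a median of 31 bp and the longer one of 103 bp. Nested embryo peaks were in the middle part in 29.7% of pairs, and in 331 of these 4279 pairs an edge was shared, which places the inner peak at an end of the space.

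Overlap within a pair was usually large. The shared stretch had a median of 210 bp and took up a median of 63.7% of the joined length. In 57595 pairs (74.2%) it covered at least 50% of each peak. A staggered endosperm peak was covered by the embryo peak to a median of 89.6%, and a staggered embryo peak by the endosperm peak to 76.3%. In staggered pairs the endosperm peak reached past the embryo peak by a median of 25 bp (quartiles 10 and 54), while the embryo peak reached past the endosperm peak by 65 bp (27 and 140). In 26.6% of staggered pairs the endosperm overhang was at most 10 bp. The boundary between staggered and nested is therefore fine: 9471 staggered pairs had a shorter overhang of 10 bp or less, and in 9636 pairs with the endosperm peak nested the nearest edge was less than 10 bp inside.

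At the threshold of the rule, 125 pairs (0.161%) shared only 1 to 10 bp, and 15 of them a single base. Their median scores were 76.6 in embryo and 59.2 in endosperm, with lengths of 248 and 172 bp. Just outside it, 178 couples of peaks shared no base but had edges under 10 bp apart. Their scores were 83.4 in embryo and 57.2 in endosperm, with lengths of 252.5 and 175 bp.

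To place the 2 peaks of a pair within their own libraries, each peak was given a percentile rank of its score among all peaks of its own library on chromosomes 1 to 10 (0 lowest, 100 highest). Raw scores were not compared between tissues, since they scale differently in each library. Equal ranks are not equal enrichment either: the pairs take up 22.1% of the longer embryo list and 67.8% of the shorter endosperm list, and the part of list length in the rank differences was not tested. The median rank was 74.7 for embryo peaks and 56.6 for endosperm peaks of the pairs. The rank difference, embryo minus endosperm, had a median of 10.1 points (quartiles -6.06 and 34.8), and the embryo rank was the higher one in 67.1% of pairs. Ranks agreed only in part, with a Spearman's rho of 0.36 across the 77642 pairs, which share 2 libraries and a chromosome. In 36.1% of pairs both peaks fell in the same of 4 equal score groups of their library, and in 28.6% the ranks differed by less than 10 points. The median absolute rank difference was 21.5 points.

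By Spearman's rho, agreement was higher within each class than over all pairs together. By the rank differences this did not hold for every class. The median absolute difference was 23.6 points with the endosperm peak nested, above the 21.5 points over all pairs. It was 18.6 points in staggered pairs and 20.96 points with the embryo peak nested. Ranks differed by less than 10 points in 26.6%, 31.7% and 30.7% of pairs in the same order, against 28.6% over all pairs. Spearman's rho was 0.57 with the embryo peak nested, 0.44 in staggered pairs and 0.41 with the endosperm peak nested. On the 10 chromosomes it ran from 0.488 to 0.689 for pairs with the embryo peak nested, from 0.399 to 0.484 for staggered pairs and from 0.392 to 0.429 for pairs with the endosperm peak nested. The lowest value of the class with the embryo peak nested was thus above the highest of either other class. Score rose with length in both libraries (rho of 0.69 in embryo and 0.61 in endosperm over the pairs). When ranks were taken among peaks of like length, in 20 length bins per library, rho was 0.44 with the embryo peak nested, 0.40 in staggered pairs and 0.39 with the endosperm peak nested, so the classes lay closer together.

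**Figure D3:**
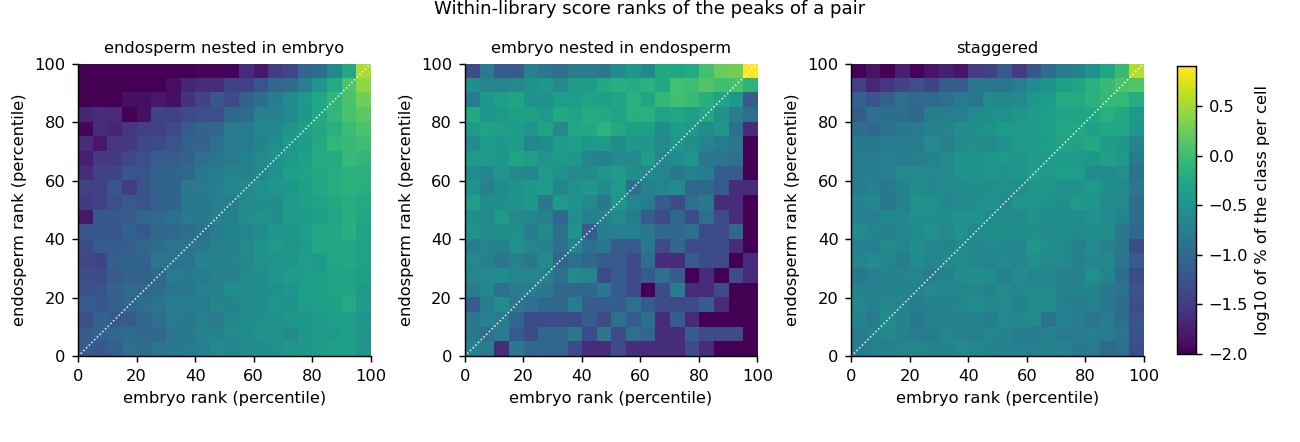
Each panel is 1 class, with the percentile rank of the embryo peak on the x axis and of the endosperm peak on the y axis, and the colour gives the log10 of the percentage of the class in each 5 by 5 point cell. Pairs with the endosperm peak nested fill the side below the dotted line of equal rank (median difference 19.6 points), and those with the embryo peak nested the side above it (-16.1 points).

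Rank difference followed the class. With the endosperm peak nested, the embryo rank was higher in 80.3% of pairs and the median difference was 19.6 points. With the embryo peak nested, the embryo rank was higher in 24.3% and the median difference was -16.1 points. Staggered pairs were close to balance, with 52.0% and 0.66 points. An embryo rank at least 25 points above the endosperm rank was found in 26049 pairs (33.6%), against 34.3% of all overlapping peak pairs. An endosperm rank at least 25 points above was found in 8654 pairs (11.1%), against 11.2%. By class the first kind made up 43.6% of the pairs with the endosperm peak nested, 21.4% of staggered pairs and 5.49% of those with the embryo peak nested. The second kind made up 4.38%, 17.9% and 39.3% of them in the same order. Over all pairs the log2 length ratio and the rank difference had a rho of 0.65, and within staggered pairs, whose class does not set the sign of the ratio, a rho of 0.55. Score and length are read from the same pile of reads in each library, so these relations are not between separate measurements.

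Class shares changed along the scores, for which the pairs were cut into 10 groups of nearly equal size. In the group with the lowest embryo scores, 28.3% had the endosperm peak nested, 13.4% the embryo peak nested and 58.3% were staggered. In group 9 these shares were 78.0%, 1.97% and 20.02%. The top group, with embryo scores of 324.9 or more, had the embryo peak nested in 4.13%. Without 10 to 13 Mb of chromosome 6 and the 2 chromosome 4 windows described below, the share in this group was 3.49% (3.10 to 3.92), above that of group 9. By endosperm score, the share with the embryo peak nested was higher in each following group, with 1.81% in the lowest and 13.8% in the highest. Groups by score are also groups by length. Median embryo length was 211 bp in the lowest and 597 bp in the highest group by embryo score. Median endosperm length was 167 and 393 bp in those by endosperm score. A choice of long peaks of 1 tissue shifts the classes by itself.

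Lengths were also compared at like ranks, which does not hold enrichment equal between the libraries. In the 22221 pairs whose ranks differed by less than 10 points, the median lengths were 354 bp in embryo and 269 bp in endosperm, with a median ratio of 1.26. The endosperm peak was nested in 54.4% of them and the embryo peak in 5.91%. In the part of these pairs with both ranks under 50 the ratio was 1.23, and with both ranks of 50 or more it was 1.27. Only in the group of 10 equal groups of all pairs with the most negative rank differences, -27.4 points and below, was the median ratio under 1, at 0.991.

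**Figure D4:**
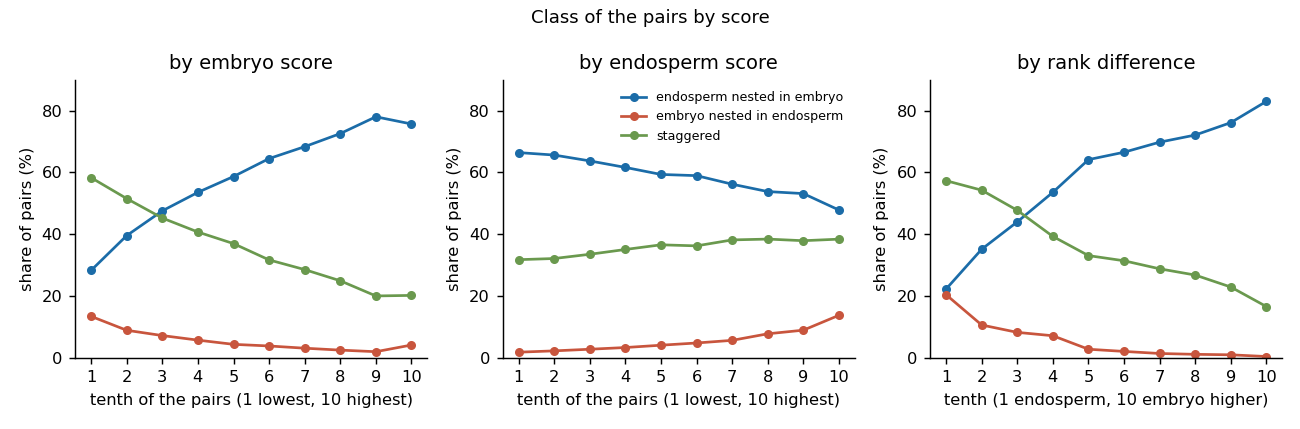
Pairs were cut into 10 equal groups by embryo score, by endosperm score and by rank difference (embryo minus endosperm), from low to high on the x axis, and the y axis gives the share of each class in percent. The share with the endosperm peak nested is 22.3% in the first and 83.0% in the last group of the rank difference.

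The extremes show how far the 2 libraries could part at one place. On chromosome 1 an embryo peak of 874 bp from 13191955 to 13192828 had a score of 573.3 and a rank of 99.5, whereas the endosperm peak within it, 155 bp from 13192189 to 13192343, had a score of 50.1 and a rank of 0.384. On chromosome 2 the embryo peak from 196735042 to 196735187 (146 bp, score 50.2) had a rank of 0.351, and the endosperm peak around it, from 196734694 to 196735193 (500 bp, score 187.7), a rank of 96.1. In both pairs the weaker peak was close to the minimum score of 50.
Some pairs were at the top of both lists. In 11 pairs both scores were at or above 3100, a value at which top scores of the lists are tied. Examples, taken in genome order among ties, are an embryo peak of 3028 bp from 154912016 to 154915043 on chromosome 1 with an endosperm peak of 2966 bp inside it, and a staggered pair on the same chromosome with 4455 bp in embryo from 234623323 to 234627777 and 4483 bp in endosperm from 234623326 to 234627808. A further pair lay nearby on chromosome 1, with an embryo peak of 1274 bp from 234543681 to 234544954 nested in an endosperm peak of 1362 bp, which shared its right edge.

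Some pairs could be placed in genes through the authors' assignment of peaks to gene regions, which was at hand for the first part of chromosome 1 only. Of the transposable element genes listed by the study, 3 had a pair assigned to an intron or the promoter here, all of them unclassified retrotransposons. In the promoter of GRMZM2G178571 the embryo peak (371 bp, rank 97.4) held the endosperm peak (303 bp, rank 85.3) almost centrally, with an offset of 2 bp. These peaks were also assigned to the coding sequence of GRMZM2G178566 and an untranslated region of GRMZM2G114619. They cannot be given to the transposable element gene alone. The intron of GRMZM2G059102 had an embryo peak 3.25 times as long as the endosperm peak nested in it, with ranks of 85.9 in embryo and 26.9 in endosperm. In the intron of GRMZM2G137236 the peaks were staggered, the embryo peak (154 bp) was the shorter one, and the ranks were 5.16 in embryo and 56.8 in endosperm. In GRMZM2G178571 and GRMZM2G059102 the endosperm peak was thus nested and the embryo rank the higher one, whereas GRMZM2G137236 differed from both.
GRMZM2G474194, in the study's list of imprinting genes, had a staggered pair in its transcriptional termination region (TTR). The embryo peak (317 bp, rank 79.1) and the endosperm peak (206 bp, rank 63.0) shared 110 bp, with midpoints 151.5 bp apart, well over the class median of 51 bp. The same 2 peaks were also assigned to the TTRs of GRMZM2G172669, GRMZM2G587127 and GRMZM2G587133, so they cannot be given to a single gene.

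Among the pairs placed in genes, the 3 of each class with the highest ranks in both tissues differed widely in length ratio, from 0.693 at GRMZM2G006128 to 1.59 at GRMZM2G541546. With the endosperm peak nested, these were in the promoter of GRMZM2G006376 (545 bp in embryo and 391 bp in endosperm, midpoints equal), in the coding sequence and an intron of GRMZM2G066272 (508 and 479 bp) and of GRMZM2G028521 (318 and 287 bp). With the embryo peak nested, they were in the TTR of GRMZM2G181496 (371 bp in embryo and 417 bp in endosperm), in the promoter, an exon and an intron of GRMZM2G006128, which is also the TTR of GRMZM2G006368 (371 and 535 bp) and in the TTR of GRMZM2G542335 (289 and 393 bp). Staggered ones were in the TTRs of GRMZM2G586086 (500 bp in embryo and 457 bp in endosperm) and GRMZM2G371137 (417 and 356 bp) and in the promoter of GRMZM2G541546 (743 and 468 bp). The lowest rank among these pairs was 85.0, that of the embryo peak at GRMZM2G542335. A peak at a gene is given here as a position, with no measure of that gene's expression.

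Pair density differed little between chromosomes. There were from 36.5 pairs per Mb on chromosome 3 to 39.6 on chromosome 6, each chromosome being measured up to its last peak, and the 2064 windows of 1 Mb with any pair held from 3 to 166 of them, with a median of 37. In the left, central and right of 3 equal parts of the chromosomes the endosperm peak was nested in 57.8%, 58.2% and 60.1% of pairs, and the median ratio was 1.397, 1.41 and 1.43. Between chromosomes the median ratio ran from 1.36 to 1.43, the median absolute offset from 35 to 37.5 bp and rho from 0.343 to 0.384. The share with the endosperm peak nested ran from 54.8% on chromosome 6 to 60.1% on chromosome 1, and that of staggered pairs from 35.0% to 36.7%.

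Relative to its size, the share with the embryo peak nested differed most between chromosomes, while in percentage points the share with the endosperm peak nested had the wider range. The embryo peak was nested in 8.44% of pairs on chromosome 6 (7.79 to 9.13) and 6.32% on chromosome 4 (5.85 to 6.84), against 4.78% to 5.73% on the other chromosomes. Of the 2043 windows with at least 20 pairs, the median share was 4.35%, 378 windows had no such pair, and 14 windows reached 20%. On chromosome 6 from 10 to 13 Mb it was 42.3% of 444 pairs (37.8 to 47.0), with median lengths of 444 bp in embryo and 495 bp in endosperm and a rho of 0.75.
Chromosome 4 held 2 windows with at least 25% of such pairs, a limit chosen after the values were seen. From 179 to 180 Mb, 42 of 138 pairs (30.4%, 23.4 to 38.6) had the embryo peak nested, and from 167 to 168 Mb 26 of 98 (26.5%, 18.8 to 36.0). The peaks there were shorter than from 10 to 13 Mb of chromosome 6, with medians of 245 bp in embryo and 239.5 bp in endosperm. Over all pairs the medians were 334 bp in embryo and 223 bp in endosperm, so only the embryo peaks were short by that measure. The median ranks over both chromosome 4 windows were 64.2 in embryo and 82.0 in endosperm. On chromosome 6 a further window above this limit ran from 20 to 21 Mb, with 25 of 90 pairs (27.8%, 19.6 to 37.8). Without these windows the share was 5.74% on chromosome 4 and, with 10 to 13 Mb also left out, 5.71% on chromosome 6. Leaving out windows chosen for a high share lowers it by construction, and the other chromosomes kept their own highest windows, so these values are a description only. The parts of DNA repeats and of mapping in these windows were not tested.

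**Figure D5:**
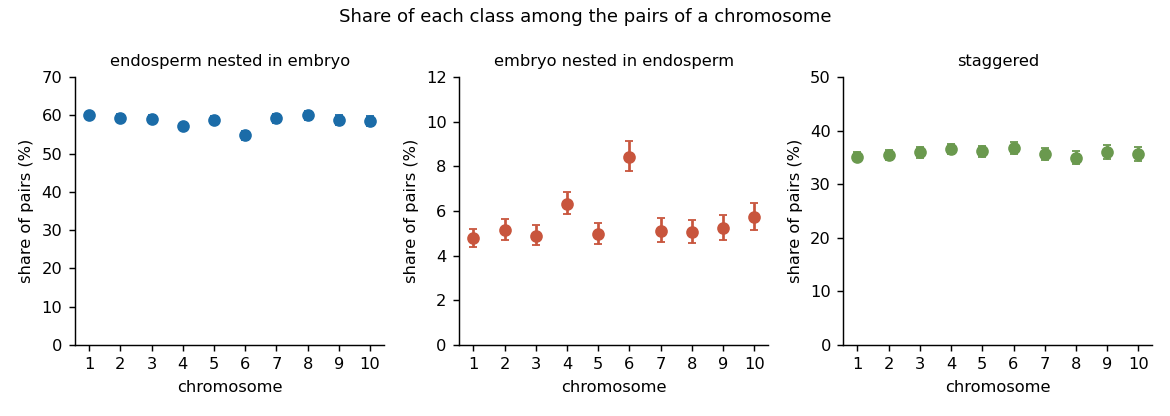
Points give the share of pairs in each class (y axis, percent) on chromosomes 1 to 10 (x axis), with 95% Wilson intervals as bars, and each panel has its own y scale starting at 0. Chromosome 6 stands above the others for pairs with the embryo peak nested (8.44%) and below them for pairs with the endosperm peak nested (54.8%).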

How the data were processed

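MeDIP DNA of 1 embryo and 1 endosperm sample was sequenced, and the authors ran fastx for cleaning, Bowtie2 2.0.5 for mapping and MACS for peak calling, library by library. No input library or genome build is given in the sources used here. The deposited lists give chromosome, start, end, name and score; the score, as deposited by the authors, is -10 times the log10 of the p-value. Peak positions, other values of the deposited lists, were turned to a count from 1. The number of ears is not given in the sources used here, and reads per peak, which the lists do not carry, were not used here, so precision is given only as Wilson intervals.

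Pairs, classes, lengths, midpoints and percentile ranks were computed with Python 3.11.15, numpy 2.4.6, pandas 2.3.3, scipy 1.17.1, statsmodels 0.14.6 and matplotlib 3.10.9. The code was tested on simulated data and against bedtools 2.31.1, and all 5 checks gave the known number. Named pairs were, per class, the 2 with the highest lower rank and the 1 nearest to the class medians of ratio and offset, and over all pairs those with the largest rank differences. Genes were named where both peaks were assigned to them in the rows at hand of the authors' peak assignments: those in the study's lists of transposable elements or imprinting genes, and the 3 pairs of highest lower rank per class. Members and lists were chosen with earlier results of these data known. Alternatives were other overlap rules, a minimum score, joined peaks, other sequences, other edge rules and other rank scales. Sequences were not used here.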

Additional observations from a re-analysis of the deposited data

Results flagged for a closer look

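Outside chromosomes 1 to 10, 1 to 1 pairs were also found, which the comparisons above do not use. On unplaced sequences there were 670 pairs among 1652 embryo and 1013 endosperm peaks. Their classes were 174 pairs with the embryo peak nested (26.0%), 221 with the endosperm peak nested (33.0%), 274 staggered and 1 identical. The median lengths were 449.5 bp in embryo and 413.5 bp in endosperm, and the median ratio was 1.01, against 1.41 on the chromosomes. Set against the scores on chromosomes 1 to 10, the median ranks there were 80.04 in embryo and 86.9 in endosperm. The mitochondrion held 10 pairs, and in all 10 the embryo peak was nested, with median lengths of 276 bp in embryo and 2231.5 bp in endosperm. The chloroplast held 2 pairs, both with the embryo peak nested.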

How the results depend on the processing

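No paired analysis was possible because each tissue has a single library. A share was taken as unmoved within its 95% Wilson interval, a median within its binomial interval, rho within 1 SD over the 10 chromosomes (0.0113) and the number of pairs within 1.5 times; with this many pairs small shifts pass these limits. The number of pairs, 77642, moved only with a score of at least 100 in both lists, to 16632, which leaves fewer peaks by construction. With that minimum the share with the endosperm peak nested was 55.5%, the median ratio 1.24, rho 0.422, the absolute offset 37 bp, the share with the embryo peak nested 8.62% and the median embryo rank 83.0. An overlap of 50% of the shorter peak gave a share of 59.2%, an offset of 35.5 bp and a rank of 75.1. Peaks up to 200 bp apart taken as shared gave 57.6%, a ratio of 1.44, 39.5 bp and 74.3. Joining peaks within 500 bp gave 61.3%, 1.56, a rho of 0.388 and 55.5 bp. An edge tolerance of 10 bp moved the share most, to 67.7%, with 8.72% for the embryo peak nested and 23.6% staggered; with strictly inner edges it was 57.2%. Pearson's r of log10 scores was 0.479, and rho of ranks within length bins was 0.395. Within 10 groups by length ratio, added after seeing the data together with the windows left out on chromosomes 4 and 6, rho ran from 0.288 to 0.701. Ranks over the pairs alone leave rho as it is by construction. All sequences, or the chromosomes without 10 to 13 Mb of chromosome 6, moved none of the 6 overall values. Of 35 other values, by class or for these windows, 23 moved. In every alternative with class shares over all of its pairs, the endosperm peak nested was the most frequent class. The groups by length ratio are not among these.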

Other observations

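Pairs with the embryo peak nested tended to follow each other along a chromosome. Consecutive pairs were a median of 16300 bp apart. After a pair with the embryo peak nested, the next pair was of the same class in 468 of 4277 cases (10.9%), against 5.51% over all next pairs. Within 2000 bp it was so in 187 of 819 cases (22.8%), against 8.16% of all next pairs at that distance. From 2000 to 10000 bp the values were 13.5% and 5.71%, and at 50000 bp or more 4.52% and 4.56%. Without 10 to 13 Mb of chromosome 6 and both windows of chromosome 4 it was 18.5% against 7.10% within 2000 bp. For pairs with the endosperm peak nested the next pair was of the same class in 60.02% of cases, against 58.7%, and for staggered pairs in 36.4%, against 35.8%. Neighbouring pairs share both libraries, and the part of repeats in this was not tested.

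The 8 pairs with identical edges lay on chromosomes 1, 2, 3, 4, 6, 8 and 10 and were 167 to 305 bp long. Embryo scores lay between 73.4 and 236.8, and endosperm scores between 52.3 and 145.5. Equal edges did not go with equal ranks: the rank difference ran from -28.9 points for the pair on chromosome 2 from 235202734 to 235202960 to 43.3 points for that on chromosome 6 from 19884808 to 19884974.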
